A study of Danio rerio with 18 samples.

Results

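The heat shock chaperones described here are 10 zebrafish genes whose products keep other proteins folded. They are the stress-inducible HSP70 genes *hsp70.1*, *hsp70.2*, *hsp70.3* and *hsp70l*, the constitutive HSP70 gene *hspa8*, the HSP90 alpha genes *hsp90aa1.1* and *hsp90aa1.2*, the small heat shock protein gene *hspb1*, the HSP40 co-chaperone gene *dnajb1b* and the procollagen chaperone gene *serpinh1b*. The members were taken by symbol from the count tables, where each of the 10 had 1 row among 31388 genes, and all 10 were among the 23367 genes that passed the filter on low counts. Their RNA was counted in whole larvae at 5 days post fertilization (DPF), in 18 libraries that form 6 groups of 3. Each library came from a pool of 15 larvae that were never fed.

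WT GF, WT CONVD, WT EXI and WT CHRYS were groups of wild-type (WT) larvae of the ABTL lineage. WT GF larvae came from surface-sterilized embryos and stayed germ-free, and WT CONVD larvae were conventionalized at 3 DPF with water from conventionally raised larvae. WT EXI and WT CHRYS larvae were mono-associated from 3 DPF with *Exiguobacterium* ZWU0009 or *Chryseobacterium* ZOR0023. The remaining groups were GF and CONVD larvae homozygous for the *myd88* allele hu3568, which lack a working Myd88, the adaptor that relays signals from most Toll-like receptors and from interleukin-1 receptors. The mutants were not siblings of the WT larvae, so genotype and parentage cannot be told apart. Whole larvae mix all tissues, and fewer cells of a type and less RNA per cell cannot be told apart in them. Nothing states that the 3 pools of a group came from separate crosses or days, and p-values therefore reflect only how much these pools varied.

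HSP70 proteins bind exposed hydrophobic stretches of unfolded proteins in cycles driven by ATP, HSP40 proteins such as Dnajb1 speed up that cycle, and HSP90 takes over clients such as kinases, steroid receptors and muscle myosin. Small heat shock proteins hold unfolding proteins without ATP, and Hsp47, the product of *serpinh1b*, binds procollagen in the endoplasmic reticulum. In vertebrates most of these genes carry binding sites for heat shock factor 1, which is released to activate them when unfolded proteins occupy the chaperones that hold it. Handling, temperature, infection and oxidative stress are known inducers of the inducible members, whereas *hspa8* is transcribed at a high level in unstressed cells.

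Library totals ran from 6404744 to 23600976 counts, with a median of 12012273. The WT CHRYS libraries were the shallowest, with a median total of 6740738, and the WT CONVD libraries had a median of 18051882. As a check of the labels, *myd88* itself was at 10.46 ± 1.68 CPM, read counts scaled to library size (SD, n = 3), in WT GF and 3.33 ± 0.411 in *myd88* GF pools (log2 fold change -1.64, edgeR adjusted p = 1.6e-09). In CONVD larvae the levels were 4.85 ± 0.826 in WT and 4.15 ± 0.389 in mutants (n = 3 each), a difference that did not pass the test (edgeR adjusted p = 0.18). The muscle, lens, leukocyte and skeletal matrix markers expected in whole larvae were all detected where a row was found for them.

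CPM here is scaled to library sizes adjusted by TMM, so a level can be compared between libraries for 1 gene but not between genes, whose lengths differ. The *hsp70* copies and the *hsp90aa1* pair are close paralogs: *hsp70.1*, *hsp70.2* and *hsp70.3* neighbour each other in the RefSeq annotation, as do *hsp90aa1.1* and *hsp90aa1.2*. With single reads of 50 nt the counting could have shared or split reads among such copies, and each value of a single copy is uncertain for that reason. The library kit does not mark strand, so reads from overlapping antisense transcripts would be counted with the gene.

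The inducible HSP70 genes were present at low levels in every pool and varied widely between WT pools of the same treatment. *hsp70.3* stood at 2.82, 6.93 and 10.3 CPM in WT GF pools 1 to 3, at 3.15, 3.80 and 9.12 CPM in the WT CONVD pools, at 3.40, 6.24 and 4.78 CPM in the WT EXI pools, and at 6.17, 5.21 and 8.63 CPM in the WT CHRYS pools. In the mutants it stood at 6.87, 5.11 and 5.23 CPM in the GF pools and at 8.60, 7.76 and 9.61 CPM in the CONVD pools. The highest WT GF pool was thus 3.64-fold above the lowest, and the ranges of all 4 WT groups overlapped.

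*hsp70.1* ran from 2.82 to 6.32 CPM in WT GF and from 3.42 to 7.34 CPM in WT CONVD pools, and *hsp70.2* from 2.55 to 7.15 and from 4.13 to 8.91 CPM. *hsp70l*, a heat-inducible copy also known for its expression in the embryonic zebrafish lens, ran from 3.64 to 8.19 CPM in WT GF and from 6.24 to 10.4 CPM in WT CHRYS pools. Summed over these 4 genes, the WT GF pools held 11.8, 21.4 and 31.9 CPM, a 2.70-fold range. A split of reads among the 4 genes does not alter this sum, but reads dropped or counted for several copies would. The sum averaged 21.7 ± 10.05 CPM in WT GF, 22.2 ± 10.08 in WT CONVD, 19.9 ± 5.83 in WT EXI, 25.6 ± 4.89 in WT CHRYS, 23.1 ± 2.81 in *myd88* GF and 30.5 ± 3.06 in *myd88* CONVD pools (SD, n = 3 each). Ranked by mean, each group overlapped the next, but groups further apart did not always: the *myd88* CONVD pools were all above the *myd88* GF pools.

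The constitutive *hspa8* was steady by comparison. Its WT GF pools were at 2569, 2828 and 2897 CPM, its WT CONVD pools at 2566, 2998 and 2864, its WT EXI pools at 2579, 2717 and 2751, and its WT CHRYS pools at 2763, 3067 and 2817. The *myd88* pools were at 3441, 3371 and 3469 CPM in GF and at 3275, 3335 and 3263 CPM in CONVD larvae. All 6 mutant pools lay above all 12 WT pools, and the share of all genes with such pools was not counted. Within treatments, all mutant pools were above all WT pools for 26.8% of all genes in GF and 28.4% in CONVD larvae. The WT GF, CONVD and EXI ranges overlapped each other, as did GF, CONVD and CHRYS, whereas every EXI pool was below every CHRYS pool.

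The HSP90 alpha genes lay between these patterns. *hsp90aa1.1*, which in zebrafish muscle works with the co-chaperone Unc45b in myosin folding, was at 45.3, 69.2 and 78.3 CPM in WT GF pools, 53.4, 70.6 and 81.9 in WT CONVD, 42.3, 67.9 and 45.0 in WT EXI, and 84.0, 81.9 and 101.5 in WT CHRYS. The *myd88* GF pools were at 95.8, 94.4 and 95.7 CPM, and the *myd88* CONVD pools at 83.1, 94.3 and 84.8. Each of the 6 mutant pools was above every WT GF, CONVD and EXI pool, whereas the mutant and WT CHRYS ranges overlapped. The share of all genes with such pools was not counted. *hsp90aa1.2* averaged 124 ± 28.7 CPM in WT GF, 130 ± 25.1 in WT CONVD, 111 ± 21.1 in WT EXI, 161 ± 14.5 in WT CHRYS, 149 ± 3.63 in *myd88* GF and 135 ± 6.70 in *myd88* CONVD pools (SD, n = 3 each), and its *myd88* GF pools were all above its *myd88* CONVD pools. Ranked by mean, the other neighbouring groups overlapped, while the EXI pools were all below the CHRYS pools.

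*hspb1*, the zebrafish Hsp27 gene, was at 8.37, 11.2 and 12.7 CPM in WT GF, and at 17.0, 14.6 and 13.9 CPM in *myd88* GF pools, with no overlap between these groups. Its WT CHRYS pools, at 11.3, 13.2 and 15.4 CPM, overlapped the *myd88* GF pools. *dnajb1b* had group means from 7.71 ± 0.548 CPM in *myd88* CONVD to 10.3 ± 1.13 CPM in WT CHRYS (SD, n = 3 each). *serpinh1b* was at 13.4, 18.8 and 20.1 CPM in WT GF, 19.1, 23.2 and 26.6 in WT CONVD, 17.7, 28.1 and 23.7 in WT EXI, and 25.3, 25.0 and 37.6 in WT CHRYS. In the mutants it was at 18.6, 18.8 and 18.1 CPM in GF and at 24.5, 25.2 and 26.0 CPM in CONVD pools. The mutant CONVD pools were all above the mutant GF pools, and the WT CHRYS pools were all above the WT GF pools.

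**Figure D1:**
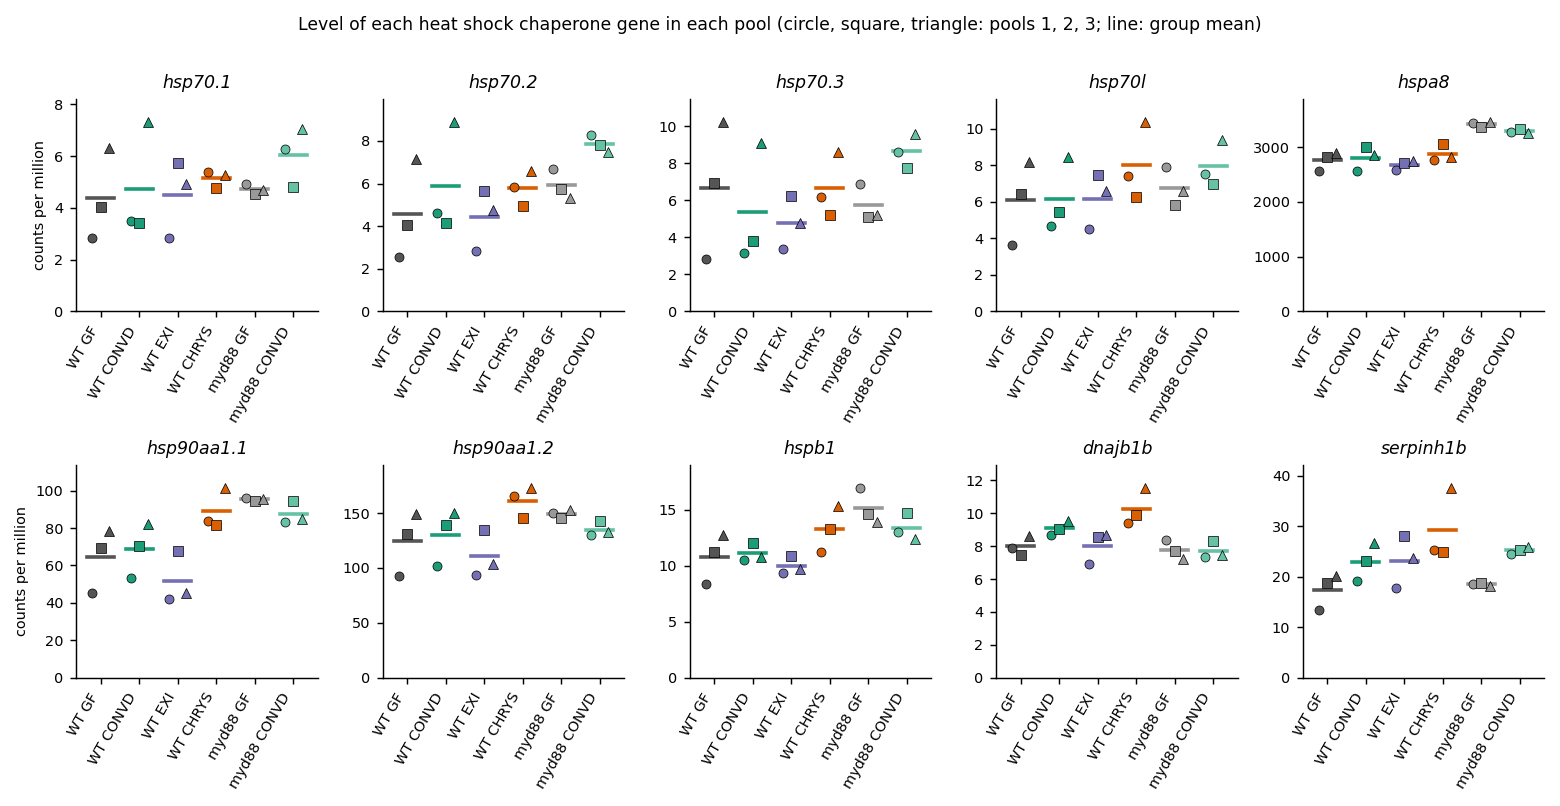
Level of each of the 10 genes in CPM (vertical axis, from 0) in the 18 pools, by group; symbols are single pools and lines group means of 3. The *hsp70* genes scatter widely within WT groups, for example from 2.82 to 10.3 CPM for *hsp70.3* in WT GF. The 6 mutant pools of *hspa8* lie above all WT pools. Within treatments, 26.8% of all genes in GF and 28.4% in CONVD larvae have all mutant pools above all WT pools.

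The scatter among WT pools was shared between the members. Each pool was compared with the mean log2 CPM of its own group, which removes any difference between groups and makes the 3 deviations of a group sum to 0. In WT GF pool 1, WT CONVD pool 1 and WT EXI pool 1, all 10 genes lay below their group means, with median deviations of -0.43, -0.30 and -0.31 on the log2 scale. In WT GF pool 3 and WT EXI pool 2 all 10 lay above (medians 0.31 and 0.30), and in WT CONVD pool 3 and WT CHRYS pool 3 it was 9 of 10 (medians 0.25 and 0.19). The median deviation over all genes with a mean log2 CPM of at least 1 was within 0.007 of 0 in every pool. In the mutants the pool with all 10 genes on one side, *myd88* GF pool 1, had a median deviation of 0.08. The largest single deviation was that of *hsp70.3* in WT GF pool 1, at -1.02.

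**Figure D2:**
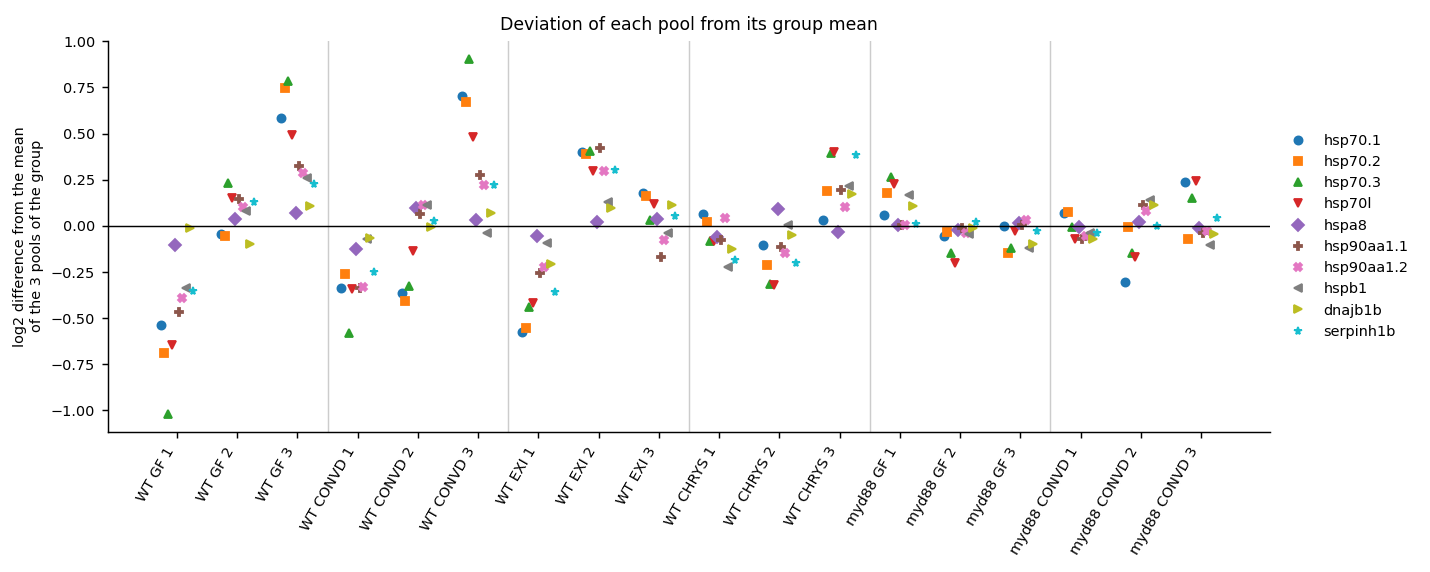
Log2 difference of each pool from the mean of its group (vertical axis) for the 10 genes in the 18 pools (horizontal axis). All 10 genes lie below 0 in the first pool of WT GF, WT CONVD and WT EXI. Pooled over groups, the spread is narrower in the 6 mutant pools than in the WT pools.

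The pools with all 10 genes low had totals of 10999402, 11787698 and 9149043 counts, and those with all 10 genes high in WT had 9830442 and 8057429, all within the range of the other WT pools. The part of depth in these shifts was not tested. The replicate numbers are names, and the labels do not say whether pools with the same number shared a cross, a day or a handling step, so the part of such steps was not tested.

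Pooled over groups, the spread within groups was wider in WT than in mutant pools for each of the 10 genes. Single groups did not all follow. The SD of log2 CPM of *hsp70.1* was 0.089 in WT CHRYS and 0.276 in *myd88* CONVD pools. That of *dnajb1b* was 0.068 in WT CONVD and 0.104 in *myd88* GF pools. The pooled within-group SD of log2 CPM was 0.671 in WT and 0.196 in mutants for *hsp70.3*, 0.534 and 0.127 for *hsp70.2*, 0.329 and 0.070 for *hsp90aa1.1*, and 0.307 and 0.034 for *serpinh1b*, which had the highest ratio of the members, 9.14. It was 0.133 and 0.101 for *dnajb1b*, close to the 0.154 and 0.135 that counting error alone would give at its read numbers. The mutant SDs of *serpinh1b* and *hsp70.2* were below the 0.081 and 0.145 of counting error. Their ratios of WT to mutant spread, 9.14 for *serpinh1b*, are therefore unreliable. Over all 23367 genes tested the median SD was 0.171 in WT and 0.119 in mutants. The median of the ratios of single genes was 1.42, against 1.32 to 9.14 for the members. A wider spread in WT was thus common to most genes. These are descriptions of 12 and 6 libraries, and the difference in spread was not tested. The mutant libraries are the deeper on average. The median total of WT CONVD, 18051882, is however above those of *myd88* GF (15694791) and *myd88* CONVD (15657362). The part of depth in the spread was not tested.

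Over the 12 WT pools, the deviations of all 45 pairs of members correlated above 0, with Pearson's r from 0.32 to 0.98 and a median of 0.78. The 4 *hsp70* copies had r of 0.89 to 0.98 with each other and 0.79 to 0.90 with the *hsp90aa1* genes, which share no close sequence with them. *serpinh1b* had r of 0.76 to 0.94 with the *hsp70* and *hsp90aa1* genes. *hspa8* followed the others least closely together with *dnajb1b*, at 0.32 to 0.63 and 0.32 to 0.78. Over the 6 mutant pools the same pairs ran from -0.85 to 0.95, with a median of 0.24. The mutant spreads of *serpinh1b*, *hsp70.2* and *dnajb1b* were below counting error. Mutant r values with these genes therefore cannot be told apart from counting noise. All pairs of values in such a correlation come from the same libraries, and with so few pools the figures carry no test.

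**Figure D3:**
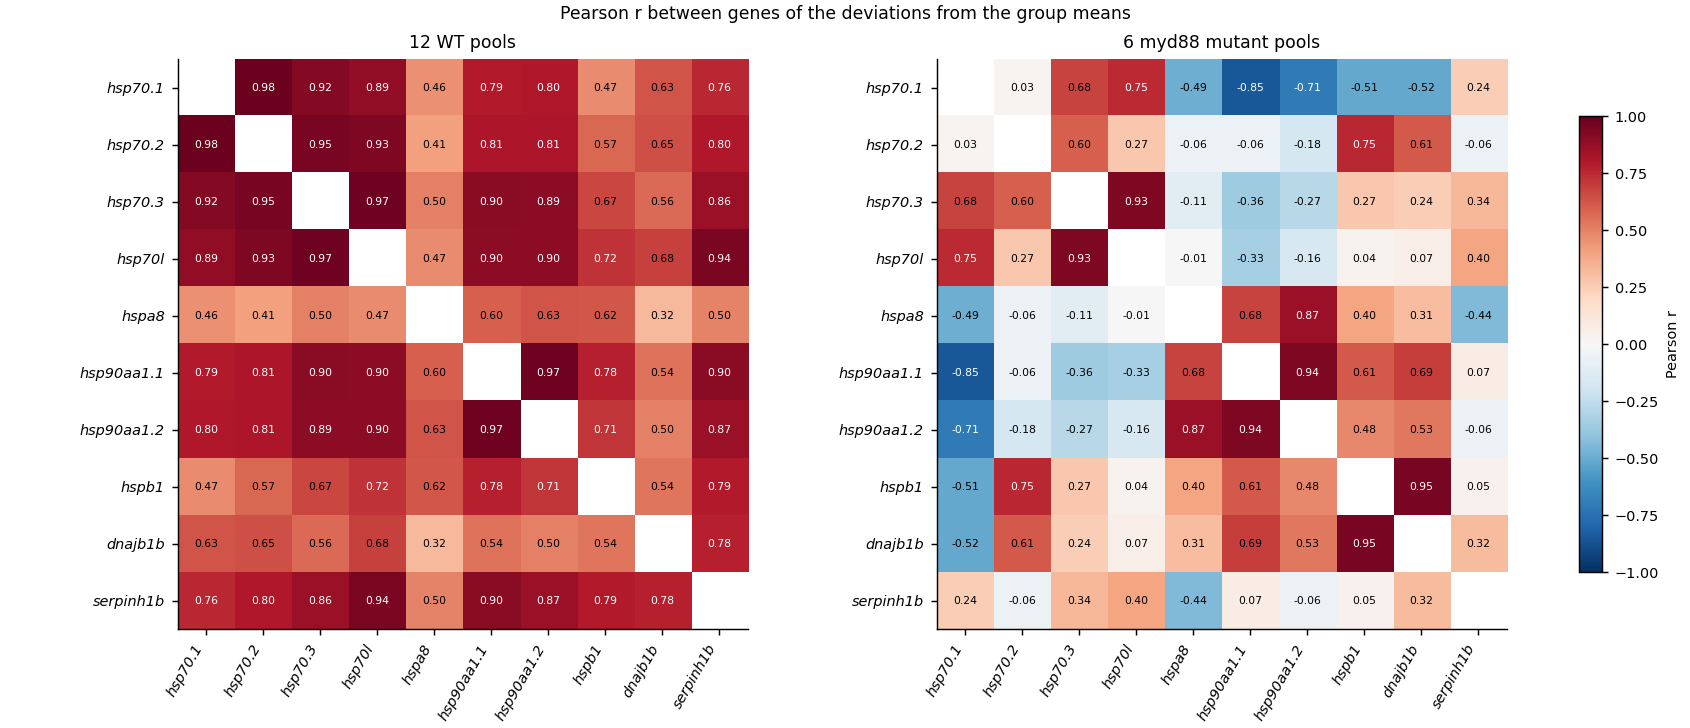
Pearson's r between genes (both axes) of their deviations from the group means, over 12 WT pools (left) and 6 mutant pools (right). The WT values are all above 0, from 0.32 to 0.98, and the mutant values run from -0.85 to 0.95.

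A minority of the other chaperones followed the members from pool to pool. Of 133 rows for other chaperones with a mean log2 CPM of at least 1, 34 (25.6%) had r above 0.7 with the median deviation of the 10 members over the 12 WT pools, against 5.94% of all 19991 genes at that level, and the median r of the 133 was 0.42. The share was 12.5% for other small heat shock proteins, 13.8% for co-chaperones and 17.1% for J-domain proteins, and it was 33.3% of the 21 cartilage, bone and notochord matrix markers, which are no chaperones. Of the 11 other HSP70 and HSP110 rows 7 passed 0.7, among them *hspa4a* and *hspa4b*, exchange factors of the HSP110 family (r = 0.90 and 0.91), *hspa5*, the HSP70 of the endoplasmic reticulum (0.87), and *hspa9*, that of mitochondria (0.88). *hspd1*, the mitochondrial HSP60, reached 0.91 and *cct5*, a subunit of the cytosolic chaperonin, 0.94. At the other end, *fkbp5*, an HSP90 co-chaperone known as a glucocorticoid target, had r of -0.80. The heat shock factor genes went opposite ways, *hsf1* at 0.82 and *hsf2* at -0.79. These genes were picked for their values after they were seen, and the same 12 pools underlie all of them.

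Conventionalization of WT larvae was compared with the germ-free state to ask whether a microbiota changed these genes. A gene was called when its edgeR quasi-likelihood p, adjusted by Benjamini-Hochberg over all 23367 genes, was below 0.05 and its change at least 1.3-fold. None of the 10 members was called, against 1.63% of all genes; 1 had an unadjusted p below 0.05 (10.7% of all genes did), and DESeq2 called 0. The median log2 fold change of the members was 0.09, against 0.00 over all genes. That 1 was *serpinh1b*, at 22.9 ± 3.76 CPM in WT CONVD and 17.4 ± 3.56 CPM in WT GF (SD, n = 3 each), a log2 fold change of 0.42 (SE 0.19, edgeR adjusted p = 0.44) with overlapping pools. Only *dnajb1b* had all CONVD pools above all GF pools, as 7.04% of all genes did, at 1.14-fold. The pool scatter left wide limits on the inducible genes: the 95% interval of the *hsp70.3* change was 0.43-fold to 1.64-fold, whereas that of *hspa8* was 0.95-fold to 1.09-fold.

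Mono-association asked the same of single strains. With *Exiguobacterium* none of the members was called (0.757% of all genes were); 0 had an unadjusted p below 0.05 (9.27% of all genes did) and DESeq2 called 0. The member changes ran from -0.46 for *hsp70.3* to 0.42 for *serpinh1b* on the log2 scale, around a median of -0.04. With *Chryseobacterium* the count called was also 0, against 1.51% of all genes, while 3 members had an unadjusted p below 0.05 (11.2% of all genes did) and DESeq2 called 1. The median log2 fold change was 0.34 and 9 of the 10 changes were above 0. These WT comparisons share the same 3 GF pools, of which pool 1 had all 10 genes low.

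The member that DESeq2 called was *serpinh1b*, at 29.3 ± 7.21 CPM in WT CHRYS pools (SD, n = 3) against the WT GF level given above. Its change was 1.68-fold (95% interval 1.25 to 2.25), with a log2 value of 0.74 (SE 0.20), an adjusted p of 0.087 by edgeR and 0.0015 by DESeq2. The CHRYS pools lay above the GF pools for *serpinh1b*, *hsp90aa1.1* and *dnajb1b*, 3 of 10 members, where 5.93% of all genes had such pools. As members moved together between WT pools, these 3 are not separate observations. *hsp90aa1.1* was 1.39-fold and *dnajb1b* 1.28-fold higher, with edgeR adjusted p-values of 0.45 and 0.24.

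The strains were also compared with each other. The paper's approximate dose of live bacteria in the water was higher for *Chryseobacterium* than for *Exiguobacterium*, and lowest for conventionalization. It estimates similar burdens per larva for both strains. The kind of bacteria and the dose in the water cannot be told apart in these comparisons. All 10 members were estimated lower in WT EXI than in WT CHRYS, with a median log2 difference of -0.35, but none was called by edgeR (0.77% of all genes were), 4 had an unadjusted p below 0.05 (10.8%) and DESeq2 called 1. For *hspa8*, *hsp90aa1.1*, *hsp90aa1.2*, *hspb1* and *dnajb1b* every EXI pool lay below every CHRYS pool, as for 6.15% of all genes. Members moved together between WT pools (median r 0.78), so these genes are not separate observations. *hsp90aa1.1*, the member called by DESeq2, was at 51.7 ± 14.1 CPM in EXI and 89.1 ± 10.8 CPM in CHRYS pools (SD, n = 3 each), a log2 difference of -0.79 (SE 0.22) with an adjusted p of 0.15 by edgeR and 0.023 by DESeq2. Between WT CONVD and WT EXI larvae 0 of 10 members were called (0.257% of all genes) and *dnajb1b* alone had no overlap, with all CONVD pools higher (5.72%). Between WT CONVD and WT CHRYS larvae 0 of 10 were called (0.116%). In both, 0 members had an unadjusted p below 0.05 (7.1% and 6.1% of all genes did) and DESeq2 called 0.

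In *myd88* mutants, conventionalization gave 0 called members, against 0.077% of all genes; 1 had an unadjusted p below 0.05 (6.61%) and DESeq2 called 0. *hsp70.2*, *hsp70.3* and *serpinh1b* had all CONVD pools above all GF pools (6.91% of all genes did), and *hspa8*, *hsp90aa1.1* and *hsp90aa1.2* all CONVD pools below (9.39%). *hsp70.3* averaged 5.74 ± 0.985 CPM in GF and 8.66 ± 0.925 CPM in CONVD mutants (SD, n = 3 each), a log2 fold change of 0.58, with a 95% interval of -0.29 to 1.45 and an edgeR adjusted p of 0.89 when all 18 libraries shared 1 estimate of spread. *serpinh1b* averaged 18.5 ± 0.319 and 25.2 ± 0.714 CPM (SD, n = 3 each), 1.36-fold, with an interval of 1.05 to 1.77 and an edgeR adjusted p of 0.67. When the mutant groups were fitted alone, both were called, with edgeR adjusted p-values of 0.015 and 3.3e-04. In that fit 143 of 22861 genes were called, against 18 of 23367 in the fit of all libraries. The within-group SD of log2 CPM of *serpinh1b* in mutants, 0.034, was below the 0.081 that counting error alone would give.

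Whether the response to conventionalization differed by genotype was tested as the mutant change minus the WT change. None of the 10 members was called, against 0.813% of all genes; 0 had an unadjusted p below 0.05 (7.38%) and DESeq2 called 0. The difference was 0.02 on the log2 scale for *serpinh1b* (95% interval -0.54 to 0.58) and 0.84 for *hsp70.3* (-0.47 to 2.15). These intervals include changes of more than 1.3-fold in either direction.

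The genotypes were first compared without bacteria. *hsp90aa1.1* and *hspb1* were called higher in *myd88* GF than in WT GF pools, 2 of 10 members, where 16.3% of all genes were called higher and 31.3% in either direction. *hspb1* averaged 15.2 ± 1.60 against 10.8 ± 2.22 CPM (SD, n = 3 each), 1.42-fold higher (log2 0.51, SE 0.13, edgeR adjusted p = 0.0026). Without WT GF pool 1 its log2 difference was 0.34 and its call was lost (edgeR adjusted p = 0.055). *hsp90aa1.1* averaged 95.3 ± 0.784 against 64.3 ± 17.0 CPM (SD, n = 3 each), 1.49-fold higher (log2 0.58, SE 0.21, edgeR adjusted p = 0.043). Its call was lost when any 1 of WT GF pools 1 and 2 or *myd88* GF pools 1, 2 and 3 was left out, with edgeR adjusted p-values of 0.18, 0.063, 0.088, 0.083 and 0.082, and kept without WT GF pool 3 (0.023). It was also lost when the compared groups were fitted alone (0.084) and with no filter on low counts (0.052).

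*hspa8* had the smallest p of the members in both genotype comparisons. It was 1.24-fold higher in *myd88* GF than in WT GF pools (log2 0.31, SE 0.05, edgeR adjusted p = 1.2e-05) and 1.17-fold higher in *myd88* CONVD than in WT CONVD pools (log2 0.23, SE 0.05, edgeR adjusted p = 5.3e-04). Both changes were under 1.3-fold and so were not called, and 44.6% of all genes passed the p alone in each comparison.

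In CONVD larvae 0 of 10 members were called between genotypes, where 29.7% of all genes were; 3 had an unadjusted p below 0.05 (51.0%) and DESeq2 called 0. *hspa8*, *hsp90aa1.1* and *hspb1* had all mutant pools above all WT pools (28.4% of all genes) and *dnajb1b* all mutant pools below (27.6%). In the GF comparison *hspa8*, *hsp90aa1.1* and *hspb1* likewise had no overlap, as 26.8% of all genes did in that direction. The differences for *hsp70.1*, *hsp70.2* and *hsp70.3* changed both ways with the pool left out. Over the 6 fits without 1 pool, their log2 values ran from 0.07 to 0.80, 0.16 to 0.87 and 0.39 to 1.28. Only without WT CONVD pool 3 were these 3 genes called higher in the mutants, whereas *hsp70l* was not called. Their log2 differences were 0.80, 0.87 and 1.28 without the pool, against 0.33, 0.42 and 0.66 with it. The edgeR adjusted p-values without it were 0.0074, 0.0072 and 0.014. In that fit 6528 of 23584 genes were called, 3421 of them higher.

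**Figure D4:**
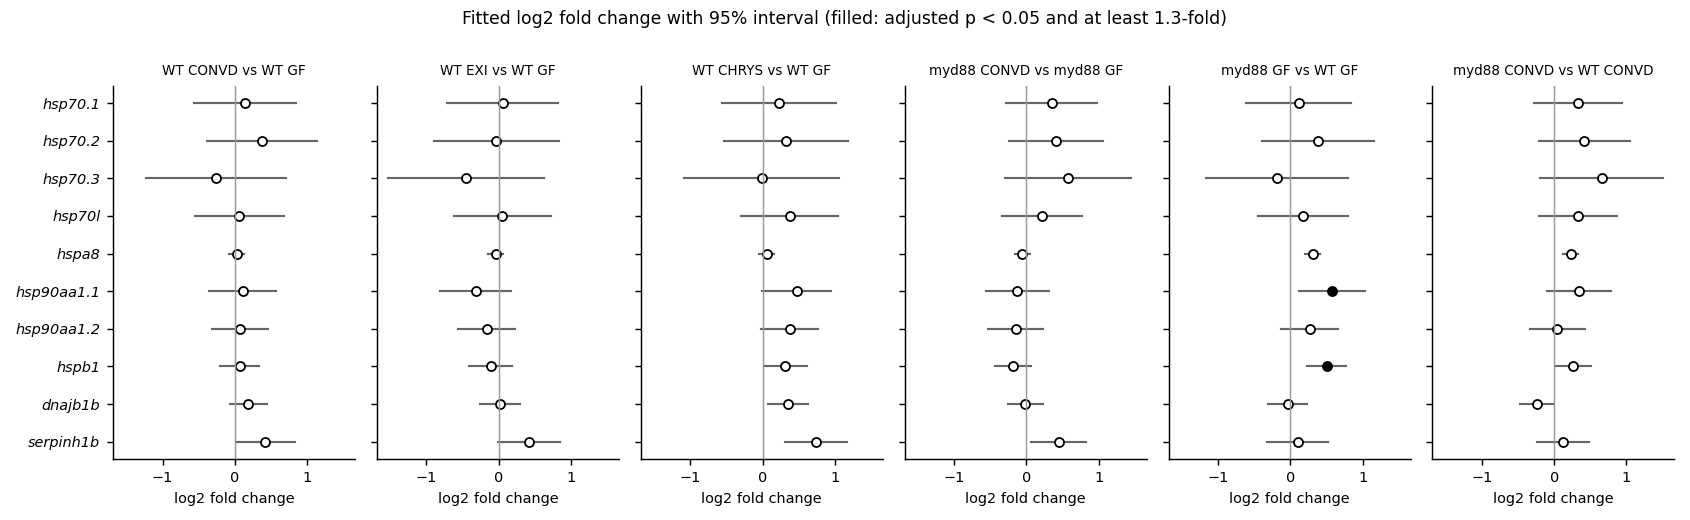
Fitted log2 fold change (horizontal axis) of the 10 genes with 95% intervals in 6 comparisons; filled points were called. Only *hsp90aa1.1* and *hspb1* in *myd88* GF against WT GF are filled, and the *hsp70* intervals are several times as wide as those of *hspa8*.

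Marker genes of other tissues were also compared between the genotypes. Summed over 19 lens marker rows, the WT pools lay between 5521 and 8140 CPM and the mutant pools between 9597 and 11462 CPM. Of the 19, 13 were called higher in the GF and 18 in the CONVD comparison. Over all 23367 genes 31.3% and 29.7% were called there in either direction, 3802 and 3559 genes as higher. The sum over 23 muscle marker rows was 75706 to 81047 CPM in WT and 69698 to 73502 CPM in mutant pools, and that over 14 leukocyte rows 103 to 140 and 88.7 to 98.1 CPM. Over 21 skeletal and notochord matrix rows the sums were 6541 to 7774 CPM in WT and 7508 to 8026 CPM in mutant pools. None of these rows was at 0. Muscle rows had 0 higher calls in both comparisons, and 3 lower in GF and 1 lower in CONVD larvae. Leukocyte rows had 1 higher and 3 lower calls in GF, and 0 higher and 6 lower in CONVD larvae. Matrix rows had 3 higher and 2 lower calls in GF, and 5 higher and 1 lower in CONVD larvae. The part of the marker genes in the genotype differences of the chaperones was not tested.

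The rest of the chaperone machinery was read from 9 lists holding 149 symbols, of which 136 were found and gave 137 tested rows. In WT CONVD against WT GF larvae 0 rose and 4 fell (2.92%, against 1.63% of all genes). *fkbp5* fell from 317 ± 39.4 to 195 ± 6.66 CPM (SD, n = 3 each; log2 -0.70, SE 0.11, edgeR adjusted p = 0.0012), with every CONVD pool below every GF pool. The other three were *bag3*, an HSP70 co-chaperone of muscle and of autophagy (log2 -0.43), *hspb11* (-0.42) and *dnajb13*, a J-domain protein of sperm and cilia (-0.59). Each of these 3 calls was lost without either pool 1: without WT GF pool 1 their edgeR adjusted p-values were 0.12, 0.30 and 0.14, and without WT CONVD pool 1 they were 0.11, 0.059 and 0.12. *bag3* also lost its call without WT GF pool 3 (0.28) or WT CONVD pool 3 (0.23), *hspb11* without WT CONVD pool 2 (0.12) or pool 3 (0.091), and *dnajb13* without WT GF pool 3 (0.095) or WT CONVD pool 2 (0.073).

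In the mono-associated larvae the calls among the 137 were close to the share over all genes, at 0.73% against 0.757% with *Exiguobacterium* and 1.46% against 1.51% with *Chryseobacterium*. *fkbp5* was the only one that fell against the shared GF pools. It averaged 211 ± 32.8 CPM with *Exiguobacterium* (log2 -0.59, edgeR adjusted p = 0.013) and 197 ± 12.2 CPM with *Chryseobacterium* (log2 -0.69, edgeR adjusted p = 0.0024; SD, n = 3 each). The *Exiguobacterium* call was lost without WT EXI pool 2 (edgeR adjusted p = 0.054) or pool 3 (0.098). *hspb6*, a small heat shock protein of muscle, was the only 1 that rose, in *Chryseobacterium* larvae, from 41.4 to 70.04 CPM on average (log2 0.75, edgeR adjusted p = 9.5e-06). Between EXI and CHRYS larvae 2 of the 137 were called, both lower in EXI (1.46%, against 0.77% of all genes). They were *hspb6* (log2 -0.70, edgeR adjusted p = 1.2e-04) and *unc45b*, a co-chaperone of muscle myosin (log2 -0.48, edgeR adjusted p = 0.043). The *unc45b* call was lost without any 1 of WT EXI pools 1, 2 and 3 or WT CHRYS pools 1 and 3, with edgeR adjusted p-values of 0.065, 0.054, 0.29, 0.11 and 0.17. *hspb6* was also the only one called between CONVD and CHRYS larvae, lower in CONVD (log2 -0.64, edgeR adjusted p = 5.0e-04; 0.73%, against 0.116% of all genes). None was called between conventionalized and germ-free mutants.

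Between genotypes, 32 of the 137 were higher and 9 lower in *myd88* GF than in WT GF larvae (29.9%, against 31.3% of all genes). In the CONVD comparison 33 were higher and 7 lower (29.2%, against 29.7%). Over all 23367 genes 3802 were called higher and 3519 lower in GF, and 3559 higher and 3383 lower in CONVD larvae. Higher calls thus outnumbered lower ones more among the 137 than over all genes, which was not tested. Of the 9 mitochondrial chaperone and protease genes 6 were higher in the GF and 5 in the CONVD comparison, with list medians of 0.55 and 0.56 on the log2 scale and none lower. *hspd1*, the HSP60 of mitochondria, went from 80.9 to 171 CPM on average in GF larvae (log2 1.08, edgeR adjusted p = 1.7e-04) and from 87.2 to 168 CPM in CONVD larvae (log2 0.94, edgeR adjusted p = 3.9e-04). Its partner HSP70, *hspa9*, rose by 0.72 and 0.71 on the log2 scale, and *grpel1*, the exchange factor of Hspa9, by 0.72 in GF and 0.66 in CONVD larvae.

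The heat shock factor genes numbered 3 tested rows: *hsf1*, whose product activates the inducible members, *hsf2* and *hsf4*. All 3 were higher in mutant GF larvae (31.3% of all genes were called there, 16.3% as higher). In mutant CONVD larvae 1 was higher (29.7% of all 23367 genes were called in either direction, 3559 of them as higher). *hsf1* rose by 0.40 on the log2 scale in the GF comparison (edgeR adjusted p = 5.5e-04) and *hsf2* by 0.39 (edgeR adjusted p = 5.7e-05). Both were close to the 1.3-fold limit, which *hsf1* missed without WT GF pool 1 (log2 0.36) or *myd88* GF pool 3 (0.34) and *hsf2* without WT GF pool 3 (0.37). *hsf4*, which in mammals acts in the lens, was low, going from 0.398 to 1.82 CPM in GF larvae (log2 2.22, edgeR adjusted p = 7.0e-05) and from 0.351 to 1.76 CPM in CONVD larvae (log2 2.31, edgeR adjusted p = 4.4e-06). Whether its difference is tied to that of the lens markers was not tested.

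Among the partners of the remaining members, *unc45b*, which works with Hsp90aa1.1, was higher in mutants in both comparisons (log2 0.63 and 0.72, edgeR adjusted p = 1.5e-05 and 8.2e-07). *smyd1a*, a muscle methyltransferase of myosin assembly on the same list, was lower in mutant CONVD larvae (log2 -0.45, edgeR adjusted p = 2.3e-07). Of the 29 rows of that list 6 were higher and 3 lower in the GF comparison, and 7 higher and 2 lower in the CONVD comparison. *p4ha1b*, a subunit of the prolyl hydroxylase that modifies the procollagen bound by Hsp47, was higher by 1.33 and 1.25 (edgeR adjusted p = 3.5e-07 and 1.6e-07). Its list of 17 rows had 4 higher and 1 lower in the GF comparison, and 5 higher and 1 lower in the CONVD comparison. *hspb7*, a small heat shock protein of heart and muscle, was higher by 1.303 and 1.04 (edgeR adjusted p = 2.3e-06 and 1.1e-05). The 9 rows for other small heat shock proteins had 3 higher and 2 lower calls in GF, and 4 higher and 0 lower in CONVD larvae. Their median log2 differences were -0.18 and 0.36. *dnaja1*, an HSP40 partner of Hspa8, was lower in mutant CONVD larvae (log2 -0.62, edgeR adjusted p = 8.2e-05). Most calls among the 43 J-domain rows went the other way, with 6 higher and 3 lower in GF, and 7 higher and 3 lower in CONVD larvae. Over all genes 31.3% were called in the GF and 29.7% in the CONVD comparison, in either direction.

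**Figure D5:**
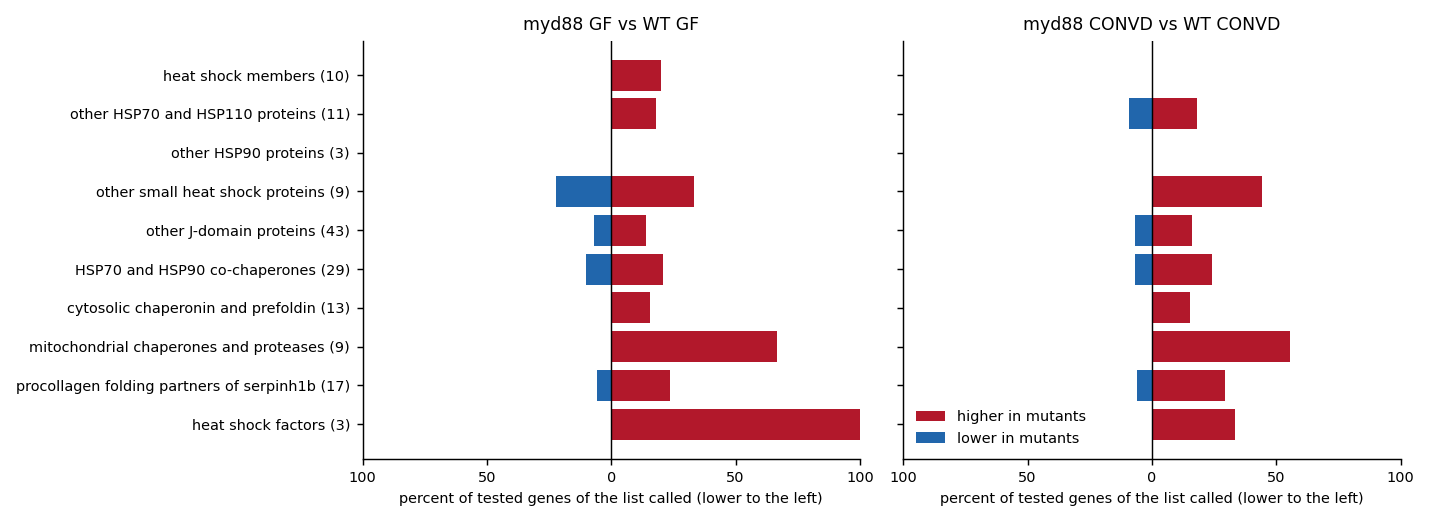
Share of tested genes (horizontal axis, percent, lower calls drawn to the left) called higher or lower in mutants, by chaperone list with the number of rows tested in brackets. The mitochondrial list has 6 of 9 rows called higher in GF and 5 of 9 in CONVD larvae, against 2 and 0 of the 10 members. Over all 23367 genes 31.3% were called in GF (16.3% as higher) and 29.7% in CONVD larvae (3559 genes as higher), in either direction.

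Across the 18 libraries, the genes whose log2 CPM followed 4 of the members most closely were looked up among 19991 genes with a mean log2 CPM of at least 1, by Pearson's r. They were *larsb* and *abce1* (r = 0.953 each) and *pak2a* (0.952) for *hspa8*, and *psmb7* (0.917), *hspa4a* (0.907) and *hibadhb* (0.906) for *hsp90aa1.1*. For *hspb1* they were *hibadhb* (0.938), *tbl2* (0.914) and *cd151l* (0.903), and for *hsp70.3* *manf* (0.827), *stk3* (0.788) and *top1l* (0.782). These 18 libraries include the genotype difference, which genes that differ between genotypes share.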

How the data were processed

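Total RNA of pools of 15 larvae was made into TruSeq libraries and sequenced as single reads of 50 nt on a HiSeq2500. The authors mapped reads to GRCz10 with the GeneTiles server, and the submitters' notes name Bowtie2, SAMtools and DESeq without versions. The deposited values are raw read counts per gene. In 9 of the deposited tables the authors' last entry has no gene name and is not whole (0.747 to 1.48). Those deposited tables were recorded as holding expected counts only because of that entry, which was left out of library sizes and tests. All other values are whole and were used as counts, as in the remaining tables.

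Genes with low counts were removed (edgeR filterByExpr, minimum count 10, minimum total 15). All 18 libraries entered 1 edgeR 4.0.16 quasi-likelihood fit in R 4.3.3 (TMM, robust, 1 coefficient per group, 12 residual degrees of freedom), adjusted by Benjamini-Hochberg over 23367 genes; 10 comparisons were made. CPM used TMM library sizes, with a prior count of 2 on the log2 scale. Alternatives were DESeq2 1.42.0, its size factors in edgeR, the compared groups alone, no filter, no fold limit, a replicate block, each library left out and, chosen after seeing the data, WT libraries alone. The fit was tested on simulated counts. No 2 libraries of a group agreed within sampling noise (chi-square per degree of freedom 1.64 to 5.46).

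The members and lists were chosen with earlier results of these data known. Genes outside the members were named, for each list and comparison, among those called with the smallest adjusted p; the genes singled out for moving with the members from pool to pool were chosen after their values were seen. Of 239 list symbols 223 were found, 2 by a synonym. RefSeq's annotation of another assembly served for synonyms and neighbours only, and no sequence was used here. An exact permutation test of 3 against 3 cannot go below p = 0.10, so none was quoted.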

Additional observations from a re-analysis of the deposited data

Results flagged for a closer look

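The response of *fkbp5*, an HSP90 co-chaperone, to conventionalization differed between genotypes by a test of the difference itself. The mutant change minus the WT change was 0.83 on the log2 scale (SE 0.15, edgeR adjusted p = 0.013), in a test that called 0.813% of all genes. In WT pools *fkbp5* fell from 317 ± 39.4 to 195 ± 6.66 CPM, and in the mutants it stood at 221 ± 26.9 CPM in GF and 240 ± 7.23 CPM in CONVD pools (SD, n = 3 each). Without WT CONVD pool 2 the difference was 0.80 and the call was lost (edgeR adjusted p = 0.057). Among GF larvae *fkbp5* was called lower in mutants than in WT (log2 -0.52, edgeR adjusted p = 0.001). Among CONVD larvae it was higher in mutants by 0.30 on the log2 scale, under 1.3-fold and not called (edgeR adjusted p = 0.031).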

How the results depend on the processing

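The number of members called stayed at 0 in WT CONVD against WT GF, WT EXI against WT GF, the genotype difference in response and CONVD against either mono-associated group under all alternatives run for each (WT libraries alone could be fitted for the WT comparisons only). In WT CHRYS against WT GF it went from 0 to 1 under DESeq2, and in WT EXI against WT CHRYS from 0 to 1 under DESeq2. In the mutants' response it went from 0 to 2 with the compared groups alone. Between GF genotypes it went from 2 to 1 with the compared groups alone and to 1 with no filter, *hsp90aa1.1* being lost both times, to 3 with no fold limit (*hspa8* added), and ran from 0 to 2 with each library left out. Between CONVD genotypes it went from 0 to 1 with no fold limit, and from 0 to 3 over the libraries left out. No named result changed direction, and the causes of these changes were not tested. Among other chaperones, the compared groups alone ended the calls of *hspb6* between CONVD and CHRYS (edgeR adjusted p = 0.21), *fkbp5* between EXI and GF (0.22), *unc45b* between EXI and CHRYS (0.096), and *bag3* (0.11) and *hspb11* (0.060) between CONVD and GF; WT libraries alone ended those of *unc45b* (0.16), *bag3* (0.072), *hspb11* (0.080) and *dnajb13* (0.099), and DESeq2 that of *bag3* (0.075). The *hsp70* genes rest on 26 to 169 counts a library, which limits what could be detected for them. Library-size scaling by DESeq2's size factors moved the median of all genes by no more than 0.008 on the log2 scale.

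Same-numbered pools' deviations over all genes tested correlated from -0.092 to 0.182, and no comparison had all of its pairs above 0.1. Between WT groups they ran from 0.001 to 0.182. Pools with different numbers were not correlated for reference, so these values cannot decide whether the numbers pair the pools. With the replicate block, 1 member, *serpinh1b*, was called in WT CHRYS against WT GF (log2 0.74, edgeR adjusted p = 0.005) and no other member count changed.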
